A study of Homo sapiens with 2 samples.

Results

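The genes described here are the long non-coding RNAs whose symbol is LINC followed by digits only, the systematic name for a long intergenic non-protein-coding RNA. They were selected on counted reads: a gene was a member when its counts in the si-NC and si-SRSF2 libraries of RKO cells summed to 50 or more. Of the 935 such symbols listed, 684 had no count in either library, 184 had fewer than 50 counts and 67 passed, out of 12069 passing genes of 54261 listed. The summed count chose the members, so their presence and level are a description. RKO, an established human colorectal cancer cell line, received either a control siRNA called si-NC or si-SRSF2, which targets SRSF2, a serine/arginine-rich protein that binds exons and directs their splicing. Pairs of counts or levels below give si-NC first and si-SRSF2 second. Each group was 1 library, so no difference below has a replicate check, and a difference between transfections cannot be told apart from an effect of SRSF2 knockdown. In bulk RNA, fewer cells of a type and less RNA per cell cannot be told apart either.

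LINC RNAs are transcribed by RNA polymerase II and are mostly capped, spliced and polyadenylated like mRNAs, but they carry no long open reading frame. They are typically less abundant and more restricted to particular tissues than mRNAs, and many are kept in the nucleus. Known members act on a neighbouring gene, bind proteins or other RNAs, or turn out to encode a small protein, and for most no function is established. A LINC name is provisional, and a gene is renamed once a function, a protein or a defining neighbour is described.

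The label was first checked against current annotation. All 67 symbols were found in RefSeq (assembly GRCh38.p14), of which 49 were current symbols and 18 were older names of a gene now called otherwise. RefSeq listed 60 as lncRNA, 6 as protein-coding and 1, LINC01296 (now DUXAP9), as a transcribed pseudogene. The protein-coding ones were LINC00094 (BRD3OS), LINC00116 (MTLN), LINC00176 (C20orf204), LINC00493 (SMIM26), LINC00998 (SMIM30) and LINC01420 (NBDY). In GENCODE release 44, also on GRCh38, 62 members were found at the RefSeq position. Only 18 of these 62 lay apart from every other annotated gene, while 44 overlapped the span of another gene and 19 that of a coding gene. Exons overlapped exons of another gene for 37 members, on the same strand for 16 and on the opposite strand for 30. The libraries were strand-specific but whether HTSeq counted by strand is not given in the sources used here, so the counts of these 37 members may include or lack reads of the overlapping gene.

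The libraries held 19931360 counts (si-NC) and 14512802 counts (si-SRSF2). SRSF2 itself had 1964 and 713 counts, or 98.5 and 49.1 CPM (counts scaled by TMM to a common library size), a log2 ratio of -1.004. All log2 ratios here divide the CPM of si-SRSF2 by that of si-NC. Of the markers of the cell type, the epithelial keratins KRT8 (547 and 618 counts) and KRT18 (632 and 477), EPCAM (179 and 147) and the intestinal factor CDX2 (212 and 158) were present, while the epithelial cadherin CDH1 had 10 and 6 counts. The mesenchymal-state genes ZEB1 (8083 and 6504 counts), a repressor of CDH1, and VIM (558 and 383 counts), which encodes vimentin, were also present. CDX1 and LGALS4 were at 0, and KRT19, VIL1, PTPRC and VWF had at most 2 counts in a library. The fibroblast genes COL1A1 (13 and 13 counts), COL1A2 (8 and 3) and PDGFRB (7 and 9) had few counts. RNAs without a poly(A) tail, of which a poly(A) library should hold few, differed between the libraries: RMRP had 10 and 230 counts, RN7SK 50 and 357, RPPH1 1 and 104, and TERC 1 and 14, while RN7SL1 and RN7SL2 were at 0. The nuclear lncRNAs NEAT1 (19861 and 21824 counts, log2 ratio 0.59) and MALAT1 (7158 and 6436 counts, log2 ratio 0.30) also had higher CPM in si-SRSF2. Their part in the values of the LINC RNAs was not tested.

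LINC RNAs made up a small share of the reads. The 67 members together had 20612 and 15571 counts, which was 0.103% and 0.107% of each library. A member's level in si-NC ran from 1.30 to 95.6 CPM (median 5.72). In si-SRSF2 it ran from 1.45 to 93.6 CPM (median 6.68). The median over all 12069 genes was 36.1 and 35.4 CPM, above the median member in both libraries. Reads were unevenly spread among the members: the 10 with the most held 55.9% of all member counts, and 28 members had a mean under 5 CPM.

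**Figure D1:**
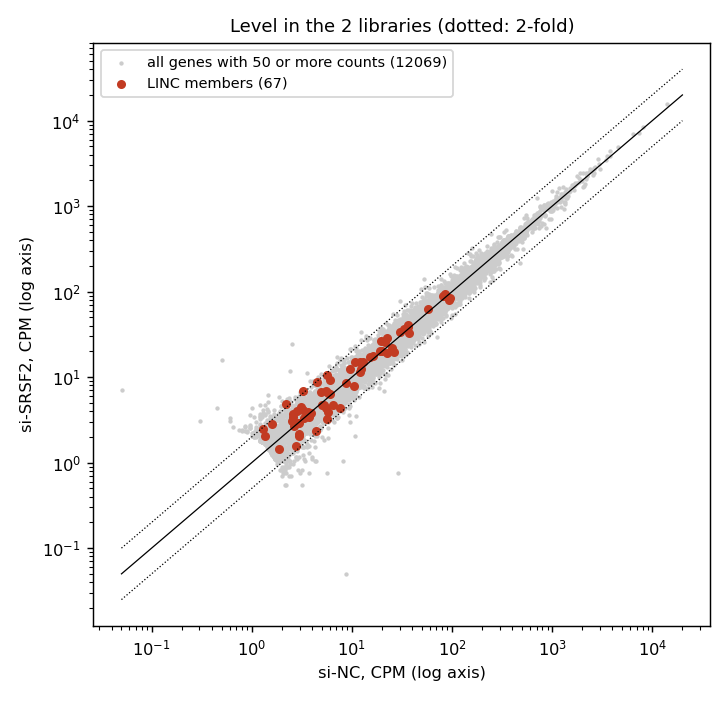
Level of each gene in si-NC (x) against si-SRSF2 (y), both in CPM on log axes, with all 12069 genes in grey and the 67 LINC members in red. The solid line marks equal levels and the dotted lines 2-fold, and the members lie between 1.30 and 95.6 CPM in si-NC, 2 of them above the upper dotted line.

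The 10 most abundant members by mean CPM differed little between the libraries. LINC01000 had 1906 and 1237 counts (95.6 and 85.2 CPM), and LINC01358 had 1691 and 1359 (84.8 and 93.6 CPM). LINC00998, now SMIM30, which encodes a small membrane protein, had 1861 and 1165 counts (93.4 and 80.3 CPM). LINC00152, now CYTOR, is a cytoplasmic lncRNA raised in many tumours, and it had 1610 and 1274 counts (80.8 and 87.8 CPM). These 4 stood well above the fifth, LINC00674, with 1157 and 908 counts. The other 5 had between 474 and 739 counts in each library: LINC01420, LINC00493, LINC00460, LINC00938 and LINC01578. The log2 ratios of all 10 lay between -0.22 (LINC00998) and 0.17 (LINC01420). With counts of this size the 95% Clopper-Pearson interval was narrow, and it stood apart from 0 for LINC00998 (-0.33 to -0.11), LINC01000 (-0.27 to -0.06), LINC00460 (-0.35 to -0.01), LINC00152 (0.01 to 0.23), LINC01358 (0.04 to 0.25) and LINC01420 (0.01 to 0.33). These intervals, here and below, cover counting error only. Over 10% of the sequence of LINC00998 (17.9%) and LINC00152 (21.1%) occurs at more than 1 place in the genome, so part of their reads may belong to copies.

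Reads per transcript length gave another order. On the scale of CPM per kilobase of the canonical GENCODE transcript, the level in si-NC was 92.4 for LINC00998, 79.2 for LINC00152 and 74.1 for LINC00493. It was 33.0 for LINC01358, 17.6 for LINC01578, 17.5 for LINC00460, 15.3 for LINC01420 and 3.36 for LINC00938, whose single exon is 9815 bases long. Of the 3 highest on this scale, LINC00998 and LINC00493 are among those now listed as protein-coding. LINC01000 was not matched in GENCODE, and the transcript given there for LINC00674 is a 160-base stretch, so no value per length is given for them.

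LINC01578, now CHASERR, overlaps CHD2 in GENCODE, with a shared stretch of exon on the same strand, so the counts of the 2 genes may not be separate. CHD2 encodes a chromatin remodeller whose expression CHASERR is known to restrain. LINC01578 had 597 and 488 counts (29.96 and 33.6 CPM), a log2 ratio of 0.17 with an interval of -0.01 to 0.34. CHD2 had 4194 and 2954 counts, a log2 ratio of -0.05. The intervals of both genes held 0 (-0.12 to 0.02 for CHD2).

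Across the 67 members, 39 were higher in si-SRSF2 and 28 lower, with a median log2 ratio of 0.09, against a median of -0.03 over all genes with 50 or more counts. The share above 0 was 58.2% for members and 45.6% for all genes. At least 2-fold higher were 2 members, where 1.03% of all genes were, and no member was at least 2-fold lower, where 0.746% of all genes were. The count of 2 became 0 with a pseudocount of 0.5 CPM or a minimum of 200 summed counts. It became 5, of 77 RNAs, where a mean of 1 CPM took the place of the minimum of 50. Both members had from 100 to under 200 summed counts, where 2.54% of all genes were at least 2-fold higher. At a limit of 1.5-fold, chosen after seeing the data, 8 members were higher and 4 lower, or 11.9% and 5.97% of them, beside 4.12% and 4.1% of all genes. These shares are not matched for counts, and most genes have more counts than most members. The 95% interval lay wholly above 0 for 18 members, or 26.9%, and wholly below 0 for 12, or 17.9%, beside 21.1% and 27.6% of all genes. For the remaining 37 the interval held 0. Within 0.5 of 0 on the log2 scale were 50 of the 67 members, or 74.6%, and 88.6% of all genes. The lowest count of any member was 26 in si-NC, and in si-SRSF2 it was 21.

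**Figure D2:**
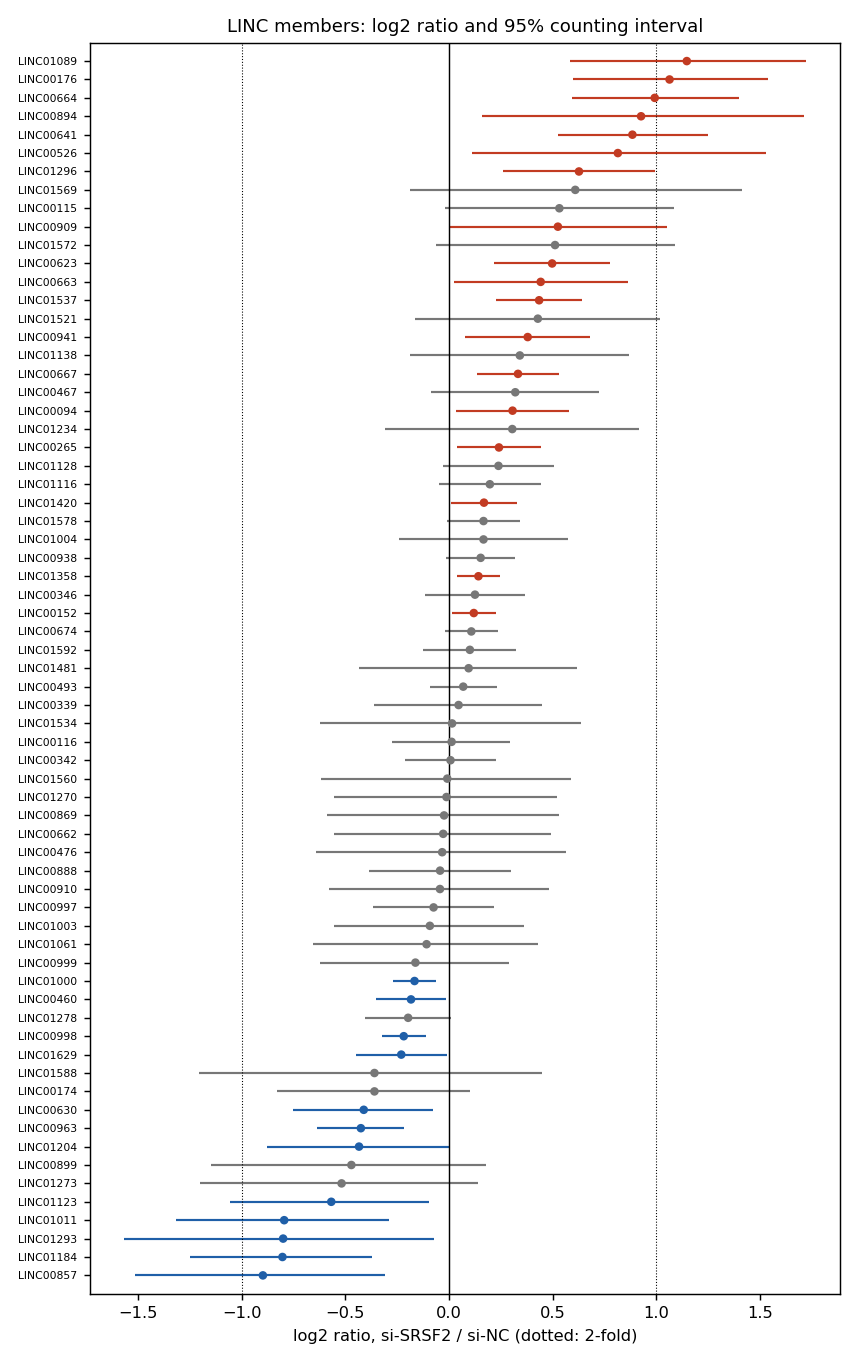
Log2 ratio between libraries, si-SRSF2 over si-NC (x) for each of the 67 members, ranked, with bars for the 95% Clopper-Pearson interval, which covers counting error only. Red marks the 18 intervals above 0, blue the 12 below 0 and grey the 37 that hold 0, and 2 points, LINC00176 and LINC01089, lie beyond the dotted 2-fold line.

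Among members with at least 100 counts, the highest ratio was that of LINC01089, also known as LIMT, an RNA described as an inhibitor of mammary tumour cell metastasis. It had 44 and 71 counts (2.21 and 4.89 CPM), a log2 ratio of 1.15 (0.59 to 1.72). By its GENCODE start, which is further upstream than the RefSeq one, it begins 103 bases from SETD1B, a histone methyltransferase gene on the opposite strand, and its span overlaps RHOF. SETD1B had 393 and 276 counts (log2 ratio -0.05, interval -0.28 to 0.17) and RHOF had 3740 and 2078 (-0.39). Neither neighbour was higher in si-SRSF2. The exons of LINC01089 overlap exons of other genes on both strands. RHOF is among them, on the same strand, so the counts of these 2 genes may not be separate.

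LINC00176, now C20orf204, a gene for a protein first taken for a non-coding RNA, had 65 and 99 counts (3.26 and 6.82 CPM). Its log2 ratio was 1.06 (0.60 to 1.54), and it overlaps no other annotated gene. The coding gene nearest to it, the spliceosome component PRPF6 at 1244 bases, had 2091 and 1619 counts, a log2 ratio of 0.09. LINC00664 shares exon sequence on the same strand with 2 coding genes, among them the zinc finger gene ZNF429, so its counts may not be separate from theirs. LINC00664 had 89 and 129 counts, a log2 ratio of 0.99 (0.59 to 1.40), just short of 2-fold. LINC00641 had 113 and 152 counts and a log2 ratio of 0.89 (0.52 to 1.25). It lies 2236 bases from HNRNPC, which encodes an RNA-binding protein of nuclear pre-mRNA and had 11685 and 9174 counts (0.11). These 4 had the only intervals of the 8 highest that started above 0.5.

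The other 4 of the 8 highest had log2 ratios from 0.51 to 0.63. LINC01296 (DUXAP9) had 120 and 135 counts, a log2 ratio of 0.63 (0.26 to 0.99). All of its 75-base words (100%) occur at more than 1 place in the genome, so its reads cannot be assigned to 1 copy. LINC00115 had 56 and 59 counts (0.53, interval -0.02 to 1.09), LINC00909 had 62 and 65 (0.53, interval 0.00 to 1.05) and LINC01572 had 52 and 54 (0.51, interval -0.06 to 1.09). LINC00909, now ZNF407-AS1, overlaps ZNF407, which had 554 and 343 counts, a log2 ratio of -0.23. Of members under 100 counts, LINC00894 (26 and 36) and LINC00526 (32 and 41) had log2 ratios of 0.93 and 0.82, and were named after their values were seen. Copies elsewhere in the genome cover 28.9% of the 75-base words of LINC00115 and 37.5% of those of LINC00894.

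The lowest ratio was that of LINC00857, an RNA described as raised in several carcinomas. It had 87 and 34 counts (4.37 and 2.34 CPM), a log2 ratio of -0.90 (-1.51 to -0.31), and 27.3% of its 75-base words occur at more than 1 place. The coding gene nearest to it, ANXA11, had 2102 and 1601 counts, a log2 ratio of 0.06. LINC01184, now SLC12A2-DT, is transcribed away from SLC12A2, the gene of a sodium-potassium-chloride cotransporter, and starts 594 bases from it in GENCODE. It had 151 and 63 counts (7.58 and 4.34 CPM), a log2 ratio of -0.80 (-1.25 to -0.37). SLC12A2 had 1113 and 643 counts and a log2 ratio of -0.33 (-0.48 to -0.19), so both genes of this pair were lower in si-SRSF2.

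LINC01011 had 112 and 47 counts, a log2 ratio of -0.80 (-1.32 to -0.29). It overlaps NQO2, a quinone reductase gene, which had 894 and 660 counts (0.02). The 2 genes share a stretch of exon on the same strand, so their counts may not be separate. LINC01123 had 114 and 56 counts, a log2 ratio of -0.57 (-1.06 to -0.09), with 77.3% of its 75-base words at more than 1 place. LINC00963 was the only one of the 8 lowest with over 500 counts, 531 and 288 (26.6 and 19.8 CPM), and its log2 ratio was -0.43 (-0.64 to -0.22). It had the narrowest interval of the group, and the coding gene nearest to it, NTMT1, had a log2 ratio of -0.07. LINC01204 had 128 and 69 counts (-0.43), LINC00630 had 210 and 115 (-0.41), and LINC00174 had 111 and 63 (-0.36). LINC00174 was alone among the 8 in having an interval that reached above 0, to 0.10. It overlaps TPST1, a tyrosylprotein sulfotransferase gene, which had 310 and 159 counts, a log2 ratio of -0.51 (-0.79 to -0.23). Where no nearest coding gene is given for one of the 8 highest or 8 lowest, that gene had under 50 counts or was not listed under its current name. For LINC00664 that gene was ENSG00000269237, which it overlaps as it does ZNF429, and the counts of ZNF429 were not looked up.

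The start regions of the 2 members past 2-fold and of the lowest one are shown for the members at the ends of the range. Each is the RefSeq window on GRCh38.p14 from 250 bases before to 50 after a transcript start, read 5′ to 3′ on the transcribed strand. The 3 windows rest on different starts. For LINC01089 and LINC00857 the start is the outer end of the RefSeq gene, and it lies 538 and 338 bases downstream of the canonical GENCODE start, so these windows are inside that transcript. For LINC00176 it is the canonical GENCODE start, which lies 2473 bases inside the RefSeq gene. No other starts were examined. Capitals mark CCAAT, the CCAAT box bound by NF-Y, GGGCGG, the GC box bound by SP1, and TATAAA, the TATA box, each on either strand. They are LINC01089 (chr12:121802897-121803196, minus strand), LINC00176 (chr20:64035932-64036231, plus strand) and LINC00857 (chr10:80207460-80207759, plus strand).
LINC01089: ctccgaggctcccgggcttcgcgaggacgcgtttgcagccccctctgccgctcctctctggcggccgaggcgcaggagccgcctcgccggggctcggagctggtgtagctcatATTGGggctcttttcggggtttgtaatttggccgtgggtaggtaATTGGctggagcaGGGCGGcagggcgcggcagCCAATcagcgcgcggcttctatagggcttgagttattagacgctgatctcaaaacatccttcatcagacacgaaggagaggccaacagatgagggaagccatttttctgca
LINC00176: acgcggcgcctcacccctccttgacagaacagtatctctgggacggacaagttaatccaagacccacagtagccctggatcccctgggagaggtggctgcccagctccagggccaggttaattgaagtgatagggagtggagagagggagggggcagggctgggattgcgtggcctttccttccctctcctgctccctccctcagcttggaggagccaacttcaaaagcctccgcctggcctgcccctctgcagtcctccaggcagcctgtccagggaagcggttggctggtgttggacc
LINC00857: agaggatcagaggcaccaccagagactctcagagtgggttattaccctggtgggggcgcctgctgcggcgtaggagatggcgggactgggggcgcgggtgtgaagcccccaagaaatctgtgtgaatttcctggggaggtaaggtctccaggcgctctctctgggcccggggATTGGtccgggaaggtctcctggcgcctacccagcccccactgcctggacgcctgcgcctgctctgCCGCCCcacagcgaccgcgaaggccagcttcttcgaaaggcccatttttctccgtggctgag

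The windows of LINC01089 and LINC00857 held 24 and 18 CpG dinucleotides and at least 1 CCAAT and 1 GGGCGG each, and that of LINC00176 held 7 CpG and none of the 3 motifs. Since the starts differ, the 3 windows are a description and not a comparison. Of the 67 members, 53 had a window in the table, which for 52 was at the outer start of the RefSeq gene. Among these, CCAAT was found in 49.1%, GGGCGG in 52.8% and TATAAA in 7.55%, against 34.6%, 44.95% and 11.5% of all 35116 windows of the same length. The median GC content was 62.0% for members and 58.7% for all windows, and 37 of the 53 (69.8%) had 10 or more CpG, against 56.4% of all. The members were chosen on counts and the 35116 windows were not, so these shares are not matched for expression. Some member windows lay far from the canonical GENCODE start, such as those of LINC01358 (86833 bases downstream) and LINC01588 (81683). A match is a description of letters and not a bound site.

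By RefSeq, a pair of members, LINC00526 and LINC00667, starts from 1 shared region of chromosome 18. In RefSeq the 2 genes point away from each other with 70 bases between them, and their start windows share 170 bases. The windows, chr18:5237980-5238279 for LINC00526 on the minus strand and chr18:5237850-5238149 for LINC00667 on the plus strand, are shown because they share this stretch, with capitals as above. The RefSeq start of LINC00526 lies 569 bases downstream of its canonical GENCODE start, so its window is inside that transcript. For LINC00667 the RefSeq start lies 33 bases downstream.
LINC00526: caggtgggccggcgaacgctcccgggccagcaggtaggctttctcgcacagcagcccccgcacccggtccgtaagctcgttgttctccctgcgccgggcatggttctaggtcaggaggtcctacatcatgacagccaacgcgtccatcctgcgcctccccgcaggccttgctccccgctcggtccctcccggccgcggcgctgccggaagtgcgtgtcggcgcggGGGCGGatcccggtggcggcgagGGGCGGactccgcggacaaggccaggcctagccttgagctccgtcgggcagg
LINC00667: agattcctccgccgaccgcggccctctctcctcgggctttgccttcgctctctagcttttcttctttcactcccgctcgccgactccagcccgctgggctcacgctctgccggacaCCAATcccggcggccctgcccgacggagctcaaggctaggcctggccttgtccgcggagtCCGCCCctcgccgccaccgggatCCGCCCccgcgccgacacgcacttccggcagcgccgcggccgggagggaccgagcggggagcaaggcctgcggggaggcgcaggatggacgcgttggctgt

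LINC00667 had 448 and 411 counts (22.5 and 28.3 CPM), a log2 ratio of 0.33 (0.14 to 0.53). LINC00526 had 32 and 41 counts (1.61 and 2.82 CPM), a log2 ratio of 0.82 (0.11 to 1.53). Both were higher in si-SRSF2, and their intervals overlapped. A second such pair lies on chromosome 1, where LINC00115 and LINC01128 have 68 bases between them. LINC01128 had 256 and 220 counts, a log2 ratio of 0.24 (-0.03 to 0.50), and LINC00115 is given above. Both members of this pair were again above 0, with intervals that reached just below it, and 32.6% of the 75-base words of LINC01128 occur at more than 1 place. In GENCODE the genes of each pair overlap on opposite strands, so without the strand setting their reads cannot be told apart.

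By GENCODE gene starts, another 7 members begin within 1000 bases of a coding gene on the opposite strand. LINC01089 and LINC01184 are described above. LINC01521 had 51 and 50 counts (log2 ratio 0.43, interval -0.16 to 1.02), and its partner PATZ1, a zinc finger gene, had 503 and 468 (0.35, interval 0.17 to 0.54). LINC01560 had 58 and 42 counts (-0.01), while ZNF41 had 99 and 122 (0.76, interval 0.36 to 1.16). For LINC01534 (53 and 39 counts, 0.01) and its partner ZNF567 (599 and 435, -0.00), and for LINC01481 (72 and 56 counts, 0.09) and CNOT2 (2141 and 1489, -0.07), neither ratio stood apart from 0. LINC01481, now PRANCR, is known for its part in epidermal progenitor renewal, and CNOT2 is a subunit of the main deadenylase complex. For LINC00894 the partner EOLA2 was not listed under that name.

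Of 10 LINC RNAs for which a small protein is described, 5 were members, 3 were at 0 in both libraries, LINC00665 had 1 count in each and 1 symbol was not listed. The 5 had a median log2 ratio of 0.07, with 4 above 0 and 1 below, where 45.6% of all genes were above 0. The interval lay above 0 for 1 (LINC01420) and below 0 for 1 (LINC00998), or 20% each, beside 21.1% and 27.6% of all genes. LINC00493, now SMIM26, and LINC00116, now MTLN or mitoregulin, both encode proteins of mitochondria. LINC00493 had 724 and 553 counts (36.3 and 38.1 CPM), a log2 ratio of 0.07 (-0.09 to 0.23). LINC00116 had 245 and 180 (12.3 and 12.4 CPM), a log2 ratio of 0.01 (-0.27 to 0.30). The intervals of both held 0. LINC01420, now NBDY, encodes a microprotein of the mRNA decapping machinery and had 717 and 587 counts, a log2 ratio of 0.17. LINC00467, which encodes a mitochondrial peptide, had 110 and 100 counts, a log2 ratio of 0.32 (-0.09 to 0.72). LINC00998 is given above.

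Of 22 LINC RNAs described in colorectal cancer, 10 were members, 7 were at 0 in both libraries, 3 had under 50 counts and 2 symbols were not listed. The 10 were split evenly, with 5 above 0 and 5 below, and their median log2 ratio was 0.05. The interval lay above 0 for LINC00152 and LINC01296 and below 0 for LINC00460, LINC00857 and LINC00963. This was 20% and 30% of the 10 members, beside 21.1% and 27.6% of all genes. LINC00460 had 739 and 474 counts (37.1 and 32.7 CPM), a log2 ratio of -0.18 (-0.35 to -0.01). LINC00346, now PRECSIT, which is named for its regulation by p53, had 326 and 259 counts, a log2 ratio of 0.13 (-0.12 to 0.37). LINC00662 had 77 and 55 counts (-0.03) and LINC01234 had 50 and 45 (0.31, interval -0.31 to 0.92). Of the members of this list, LINC00857 had the largest difference, and LINC00346, LINC00467, LINC00662, LINC00174 and LINC01234 had intervals that held 0.

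Of 2 p53-induced LINC RNAs listed, LINC01021, now PURPL, an RNA that p53 induces, had 7 and 22 counts. It had too few counts to be a member, its log2 ratio was 2.11 and its interval ran from 0.83 to 3.58. The other, LINC00657, was not listed under that symbol. LINC00473, below the limit as well, had 0 and 10 counts.

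The members were also set against features of their transcripts. With 1 exon in the canonical transcript there were 9 members, with a median log2 ratio of 0.15. The 29 members with 2 to 4 exons had 0.07 and the 24 with 5 or more had 0.13. Over the 62 members with a GENCODE transcript, the Spearman rho of the log2 ratio was -0.01 with the number of exons and 0.20 with transcript length. With the summed counts, which chose the members, it was -0.02 over all 67. These values describe members that share the same 2 libraries. The 18 members apart from every other gene had a median of 0.06 and the 44 that overlap one 0.13. Copies were found for 15 members, in which over 10% of the 75-base words of the canonical transcript occur at more than 1 place in GRCh38. Their median was 0.12, against 0.11 for 47 members with fewer. The copied ones included LINC00623 (212 and 218 counts, log2 ratio 0.50) with 47.6% and LINC01138 (65 and 60 counts, 0.34) with 34.4%. Both lie on chromosome 1, and their values are uncertain. Hairpins of microRNAs lie within 2 members, MIR4435-1 in LINC00152 and MIR5087 in LINC01138.

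Of the members not described so far, 24 apart from those at the limit, the interval lay above 0 for 5, below 0 for 2 and held 0 for 17. Since the highest and the lowest members had been taken out by their ratio, these counts are not comparable with the shares over all genes. LINC01537 had 389 and 383 counts (19.5 and 26.4 CPM), a log2 ratio of 0.44 (0.23 to 0.64), the highest of the members with 500 or more counts. LINC00663 (98 and 97 counts, 0.44), LINC00941 (191 and 181, 0.38), LINC00094 (242 and 218, 0.31) and LINC00265 (431 and 371, 0.24) were the other 4 above 0. LINC00094, now BRD3OS, overlaps BRD3, the gene of a bromodomain protein that reads acetylated histones. LINC01293 (55 and 23 counts, -0.80) and LINC01629 (451 and 280, -0.23) were the 2 below 0. The 17 others ran from -0.52 (LINC01273, 59 and 30 counts) to 0.20 (LINC01116, 303 and 253 counts).

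A nearest coding gene with 50 or more counts was found for 40 members. Of these, 17 had a log2 ratio of the same sign as that gene and 23 of the opposite sign. The neighbouring genes had a median log2 ratio of -0.03, and the highest was ZNF41 at 0.76. Across the 40 the Pearson correlation of member and neighbour was -0.07 and the Spearman correlation -0.12. All points come from the same 2 libraries, and 2 members near CEBPB share it as neighbour. The distance ran from 0, where the spans overlap, to 1411315 bases for LINC00662 and UQCRFS1. These values thus do not describe adjacent genes only.

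**Figure D3:**
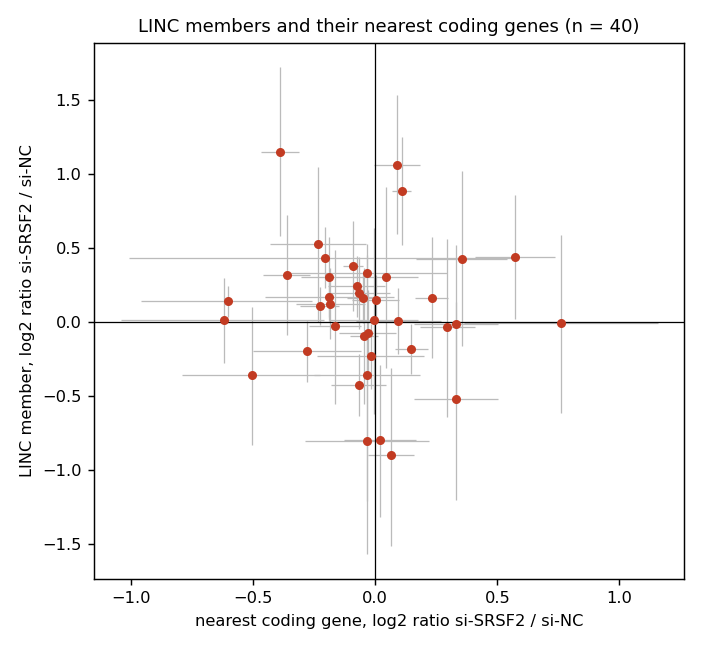
Log2 ratio, si-SRSF2 over si-NC, of the nearest coding gene at any distance (x) and of the LINC member (y), for 40 members, with bars for the 95% Clopper-Pearson intervals. The points lie on both sides of 0 on both axes, 17 with the same sign and 23 with opposite signs, and for 34 of the 40 the interval of the member is the wider one.

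Since a ratio scatters more at low counts, the members were set beside other genes in 4 classes of summed counts. Between 50 and 99 summed counts there were 9 members with a median log2 ratio of 0.01 and a median absolute log2 ratio of 0.52, against 0.04 and 0.46 for 885 genes. Of these 9, 3 were at least 1.5-fold higher and 1 lower, and of those genes 20.5% and 17.4%. From 100 to under 200 counts, 23 members had a median of -0.02 and an absolute one of 0.36, against 0.00 and 0.32 for 907 genes. Of these 23, 2 were at least 1.5-fold higher and 2 lower, or 8.70% each, and of those genes 11.9% and 11.2%. From 200 to under 500 counts, 15 members had a median of 0.24, with 11 above 0, 3 at least 1.5-fold higher and 1 at least 1.5-fold lower. For the 1555 genes of that class the median was -0.03, 47.1% were above 0, and 5.92% and 6.05% were 1.5-fold higher and lower. With 500 or more counts, 20 members had a median of 0.11, with 14 above 0, against -0.03 and 44.1% for 8722 genes, and none was at least 1.5-fold higher or lower, beside 1.33% and 1.66% of those genes. This open class is not matched for counts, as its median summed count was 972 for members and 1951 for all genes. The median of the members was above that of all genes in the upper 2 of the 4 classes and not in the lower 2. Antisense RNAs, the 146 genes whose symbol ends in AS with or without digits, had a median of 0.14 in all. By class, from the fewest counts to the most, it was 0.15, 0.25, 0.12 and 0.06, above that of all genes in each. The 27 host genes of small RNAs had a median of 0.22. A median above that of all genes was thus also seen in the antisense RNAs and in the host genes.

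**Figure D4:**
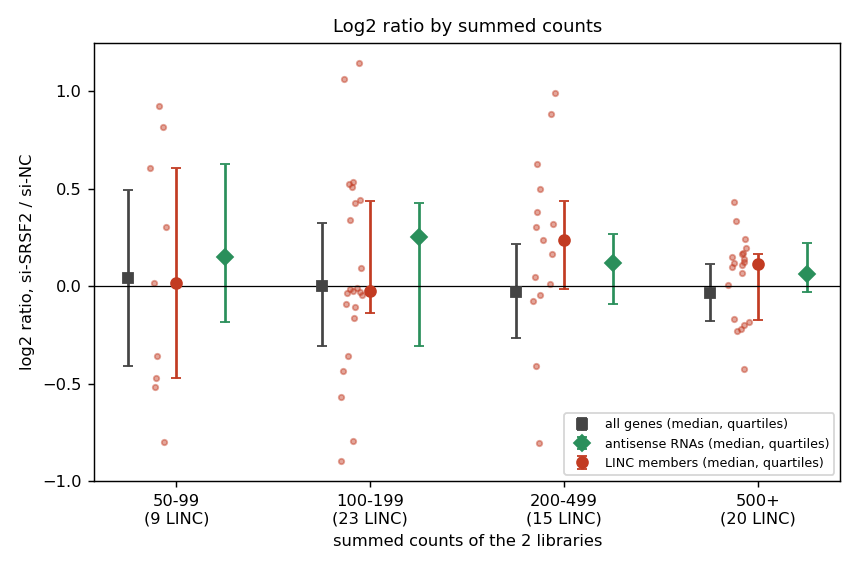
Log2 ratio between libraries, si-SRSF2 over si-NC (y) in 4 classes of summed counts (x), with red points for single LINC members and larger symbols with bars for the median and quartiles of LINC members, antisense RNAs and all genes. The spread of each set narrows with counts, and the median of the 15 members from 200 to under 500 counts stands at 0.24 against -0.03 for all genes.

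At the limit of 50 counts, the members just inside were LINC01569 (27 and 30 counts, log2 ratio 0.61) and LINC01588 (37 and 21, -0.36). Just outside were LINC01024 (25 and 21, 0.21) and LINC01125 (27 and 19, -0.05). The 184 LINC RNAs that were counted but stayed under the limit had a median of 4 summed counts, and 819 and 703 counts together. A count of 0 allows up to 3 counts, or 0.151 and 0.207 CPM, so a 0 does not show that one of the 684 LINC RNAs at 0 was absent.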

How the data were processed

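Poly(A) RNA of RKO cells was sequenced in 2 strand-specific libraries, si-NC and si-SRSF2, as 150 bp paired-end reads. After trimming and quality filtering, the authors mapped reads to GRCh38 using HISAT2 (2.0.4 in the submitters' processing notes), and HTSeq gave the deposited table of whole-number counts, 1 value for each symbol and library, which is not normalized. The methods name Ensembl 100, but many symbols have the NCBI form.

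Library sizes were adjusted by TMM factors (edgeR 4.0.16, R 4.3.3). The log2 ratio of CPM, si-SRSF2 over si-NC, used no pseudocount, since one of 0.5 CPM shrinks members near 1 CPM. The 95% Clopper-Pearson intervals came from SciPy 1.17.1. No test was run with 1 library per group. The calculations were tested on simulated data. Positions came from RefSeq and GENCODE 44, and copies from 75-base words of the canonical transcripts searched on both strands.

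Members and lists were chosen with earlier results of these data known. Named were SRSF2, the 10 most abundant members, the 8 highest and 8 lowest with at least 100 counts with their nearest coding gene, the members nearest to the limit of 50 and the listed RNAs. Others were named after their values were seen. The alternatives tried were upper-quartile and DESeq2 1.42.0 size factors, total counts, added pseudocounts, other count limits, and members without overlap.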

Additional observations from a re-analysis of the deposited data

How the results depend on the processing

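With 1 library in a group, none could be left out in turn. No paired analysis was possible because si-NC and si-SRSF2 had 1 library each. SRSF2 had log2 ratios from -1.004 to -0.98, and the median of the LINC members lay between 0.06 and 0.13, under the alternatives run. The median of all genes was -0.03, and -0.00 with upper-quartile factors. For 31 named members, all 217 alternative values stayed within the interval. At low counts the intervals are wide, so this says little there. With a pseudocount of 2 CPM, LINC01089 moved from 1.15 to 0.71, LINC00176 from 1.06 to 0.75 and LINC00857 from -0.90 to -0.55. The count of members at least 2-fold higher, 2, changed with the handling of low counts and was 3 with upper-quartile factors. It was 0 with a pseudocount of 0.5 or 2 CPM, with 200 summed counts, or where the near bound of the interval had to pass 2-fold. It was 5 of 77 RNAs with a mean of at least 1 CPM and 1 of the 18 members that overlap no other gene. With no minimum it was 26 of 158 (genes with at most 3 counts in both libraries left out). There a count of 0 in 1 library was set to 3 counts. Shares of all genes under these limits were not computed. The count at least 2-fold lower, 0, became 1 of 77 with a mean of at least 1 CPM and 17 of 158 with no minimum. At 1.5-fold the counts were 8 and 4, and with the interval apart from 0 they were 18 and 12, both chosen after seeing the data. By construction, a pseudocount shrinks ratios of low counts and the limits change which genes enter. Depth limits the 9 members under 100 counts most, whose intervals had a median width of 1.42 on the log2 scale, against 0.37 from 500 counts.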
